A study of Mus musculus with 18 samples.

Results

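GFP+ epithelial cells of Olfr78 knockout (KO) mice were compared with the general colon epithelium of a wild-type (WT) mouse to find which enteroendocrine genes these cells transcribed although the receptor was missing. *Olfr78* encodes an olfactory receptor for short-chain fatty acids. The mice were of the Olfr78-GFP line (B6;129P2-Or51e2tm1Mom/MomJ), whose targeted allele has lost the protein-coding exon and carries the reporters GFP and tauLacZ, joined by an IRES, so that GFP marks cells whose *Olfr78* promoter is active. The KO cells were Epcam+/GFP+ cells of homozygous mice aged 4 to 7 months, in 2 pools of 2 mice each. The general epithelium consisted of 2 samples of Epcam+/GFP- cells from the colon of 1 WT mouse. A further 2 pools of Epcam+/GFP+ cells from heterozygous (HE) mice, which keep 1 intact *Olfr78* allele, are given for reference. Epcam is a surface protein of epithelial cells. Genes entered the comparison when they reached 40 CP20M (reads per gene scaled to a library of 20000000) in at least 2 of the 4 KO and WT libraries, which 15779 of 52636 genes did. The 4 libraries were taken from the 18 of the whole series.

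Several limits come from this design. The GFP gate and the genotype differ together between KO and WT libraries and cannot be told apart in this contrast. Both WT samples came from 1 mouse, so their spread holds no difference between mice. The archive labels the WT samples as enteroendocrine in cell subtype, but *Chga* and *Chgb* lay 39.97 and 33.4 times lower there than in KO pools, and they are called general epithelium here. In pooled RNA, fewer cells of a type and less RNA per cell cannot be told apart. With 2 libraries in each group, exact two-sided permutation cannot give a p below 0.333, so single genes were tested with limma across all genes.

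Enteroendocrine cells are scattered hormone-producing cells of the gut lining. Enterochromaffin cells, the commonest kind in the colon, make serotonin from tryptophan, and L cells secrete the peptides PYY, GLP-1 and INSL5. Both kinds store their products in dense-core granules formed with chromogranins and release them by calcium-triggered exocytosis, with much of the machinery that neurons use at synapses.

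Depth differed between the libraries. The recovered reads on genes were 532704 in KO pool 1 and 1721183 in KO pool 2, against 2237486 and 1946873 in WT samples and 1738139 and 1499836 in HE pools. In KO pool 1 a single read stood for 37.5 CP20M, in the other 5 libraries for 8.94 to 13.3 CP20M, so that a gene needs several reads before a difference can be seen in KO pool 1. The 10 most abundant genes took 26.4% to 39.6% of a library, the most in KO pool 1. The highest values of the KO pools belonged to *CT010467.1*, *Gm42418*, *AY036118*, *mt-Rnr2* and *mt-Rnr1*, features that overlap or encode ribosomal RNA.

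*Olfr78* (ENSMUSG00000043366, chromosome 7, 102738511 to 102759471, minus strand, GRCm38) had 977 and 837 CP20M in KO pools, from 26 and 72 reads. The WT samples had 135 and 21 CP20M, from 15 and 2 reads, and the HE pools 4822 and 4401 CP20M. The KO pools thus lay above both WT samples and below both HE pools, with no overlap. Over all genes tested, 19.4% were above both WT samples and 23.5% below both HE pools in this way. The GFP gate selected cells with an active *Olfr78* promoter, so it favours higher values than in the WT samples. The log2 fold change of KO against WT was 3.77 (standard error, SE, 0.76; limma adjusted p = 0.107), and edgeR's quasi-likelihood test on recovered reads gave an adjusted p of 0.00800. Values per gene do not show where in the gene the reads lie, and the cassette leaves the non-coding exons in the knockout allele, so the reads of the KO pools are no measure of the receptor.

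The 3 chosen enteroendocrine markers, which were no part of the Epcam and GFP gates, were all higher in KO GFP+ cells than in the general epithelium. *Chga* (ENSMUSG00000021194, chromosome 12, 102554969 to 102565028, plus strand), which encodes the granule protein chromogranin A, had 3504 and 3380 CP20M in WT samples, 168049 and 107136 in KO pools and 242823 and 304540 in HE pools. Its log2 fold change of KO against WT was 5.28 (SE 0.36, limma adjusted p = 0.0173). Here and below, log2 fold changes are on the scale log2(CP20M + 10), which understates the change of low genes. *Chgb* (ENSMUSG00000027350, chromosome 2, 132781278 to 132795079, plus strand), encoding chromogranin B, rose from 7732 and 7674 CP20M in WT samples to 322506 and 191903 in KO pools. The HE pools had 468364 and 630029 CP20M of *Chgb*, and its log2 fold change of KO against WT was 5.01 (SE 0.43, limma adjusted p = 0.0175). *Pyy* (ENSMUSG00000017311, chromosome 11, 102106676 to 102107832, minus strand), the peptide YY of L cells, had 45 and 124 CP20M in WT samples and 2516 and 2568 in KO pools, a log2 fold change of 4.89 (SE 0.49, limma adjusted p = 0.0240). The HE pools differed widely for *Pyy*, with 5017 and 681 CP20M, so that the KO pools lay between them.

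Because *Chga* and *Chgb* had the highest values of all genes called higher and moved together, sequences at their starts are shown, read from RefSeq on GRCm38.p6, both on the plus strand. Capitals mark a match to the cyclic AMP response element TGACGTCA or, in *Chga*, to its first letters TGACG, which are contained in the full element. For *Chga* the 250 bases before the RefSeq start are given (chr12:102554691-102554940). RefSeq starts *Chgb* 364 bases after the GENCODE start given above, so that the same window lies within the GENCODE gene. For *Chgb* 30 bases around the match are given (chr2:132781559-132781588).
Chga: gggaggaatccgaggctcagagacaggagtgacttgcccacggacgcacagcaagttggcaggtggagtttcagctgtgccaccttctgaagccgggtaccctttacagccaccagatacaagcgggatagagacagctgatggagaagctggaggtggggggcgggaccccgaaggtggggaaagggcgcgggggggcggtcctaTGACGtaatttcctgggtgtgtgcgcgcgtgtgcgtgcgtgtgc
Chgb: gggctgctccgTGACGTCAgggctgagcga
Over windows that also take in the 50 bases after the start, on both strands, TGACGTCA stood in 4 of the 74 promoters found for the 98 genes called higher (5.41%), *Celf3*, *Chgb*, *Cpb2* and *Peg3*. It stood in 3.65% of the 10061 promoters of tested genes and in 2.03% of all 27025. TGACG stood in 17 of the 74 (23.0%), against 35.4% and 23.0%. These are matches of letters, and no test was made on them.

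**Figure D1:**
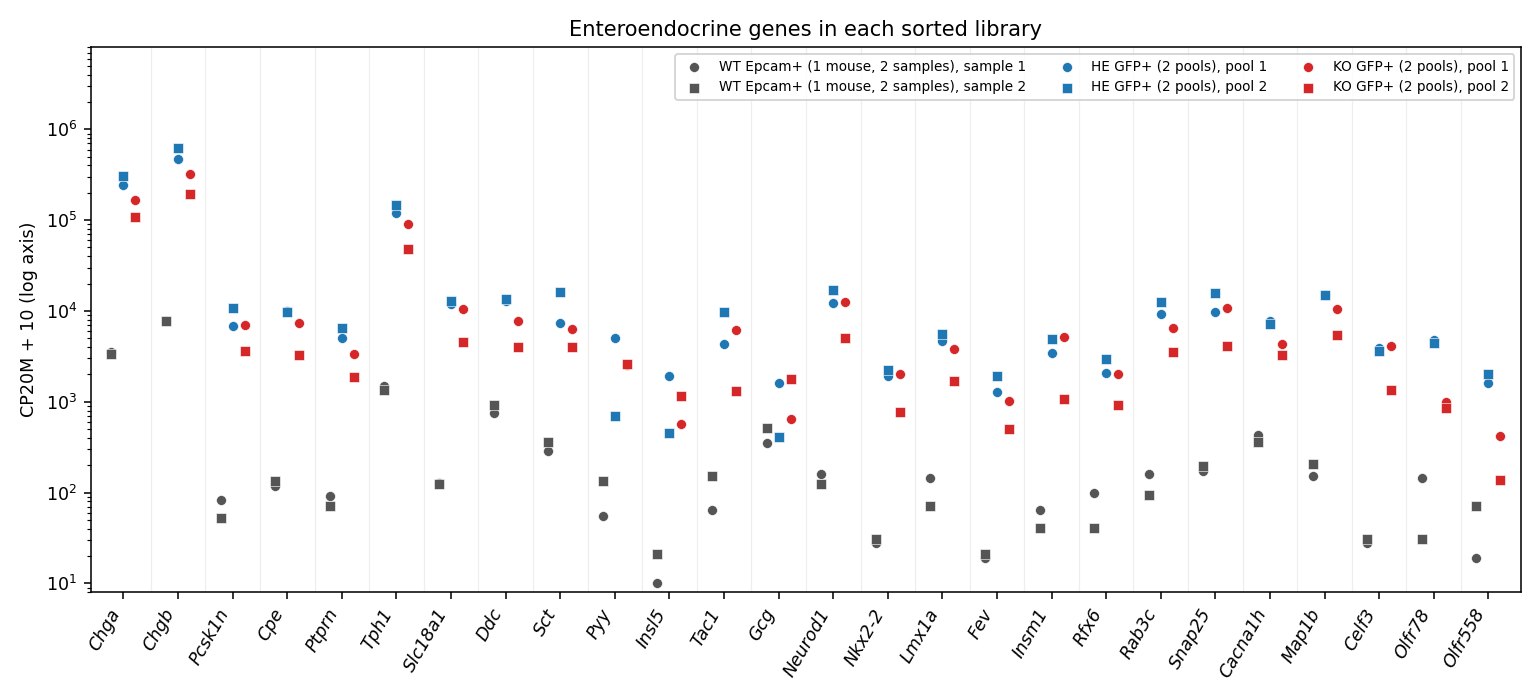
Values of 26 genes in the 6 sorted libraries, as CP20M + 10 on a log axis, with 1 point per library (grey, WT Epcam+ samples; blue, HE GFP+ pools; red, KO GFP+ pools; circles, number 1; squares, number 2). Both KO pools lie above both WT samples for each gene shown, and KO pool 1 lies above KO pool 2 for all but *Pyy*, *Insl5* and *Gcg*. The genes were chosen, and list members that overlap or are lower, such as *Slc18a2* and *Maoa*, are not shown. Over all genes tested, both KO pools lie above both WT samples for 19.4%.

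Across all genes, 98 were higher in KO GFP+ cells than in the general epithelium (0.621% of the 15779 tested) and 18 were lower (0.114%), by limma with an adjusted p under 0.05. The genes called higher had log2 fold changes of 2.10 to 7.37 with a median of 4.89, and 71 of them lay above 4. Those called lower ranged from -6.80 to -1.74. The study's methods used a stricter threshold, with edgeR and for HE GFP+ cells, of an adjusted p under 0.001 and a log2 fold change beyond 2. At this threshold limma called 0 genes in either direction for KO against WT (0%), with 2925 genes at an unadjusted p under 0.05. With edgeR on recovered reads, 30 were called higher and 1 lower. At an adjusted p under 0.05 edgeR called 433 genes higher (2.74%) and 109 lower (0.691%), including all 116 genes called by limma. Of the 98 genes, 42 belonged to the gene lists described below and 56 did not. The median log2 fold change over all genes was -0.26, -0.12 after median-of-ratios rescaling and -0.03 with edgeR.

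The number of calls depended on which of the 4 libraries were included. Without KO pool 1 limma called 2 genes higher and 1 lower, without WT sample 1 or 2 it called 0 and 0 (754 and 617 genes had an unadjusted p under 0.05), and without KO pool 2 it called 1247 higher and 3705 lower. All 98 genes stayed higher and all 18 lower in sign with any 1 library left out. That outcome was fixed beforehand, because the KO and WT values did not overlap for any of the 98 or the 18, and it says nothing on robustness.

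**Figure D2:**
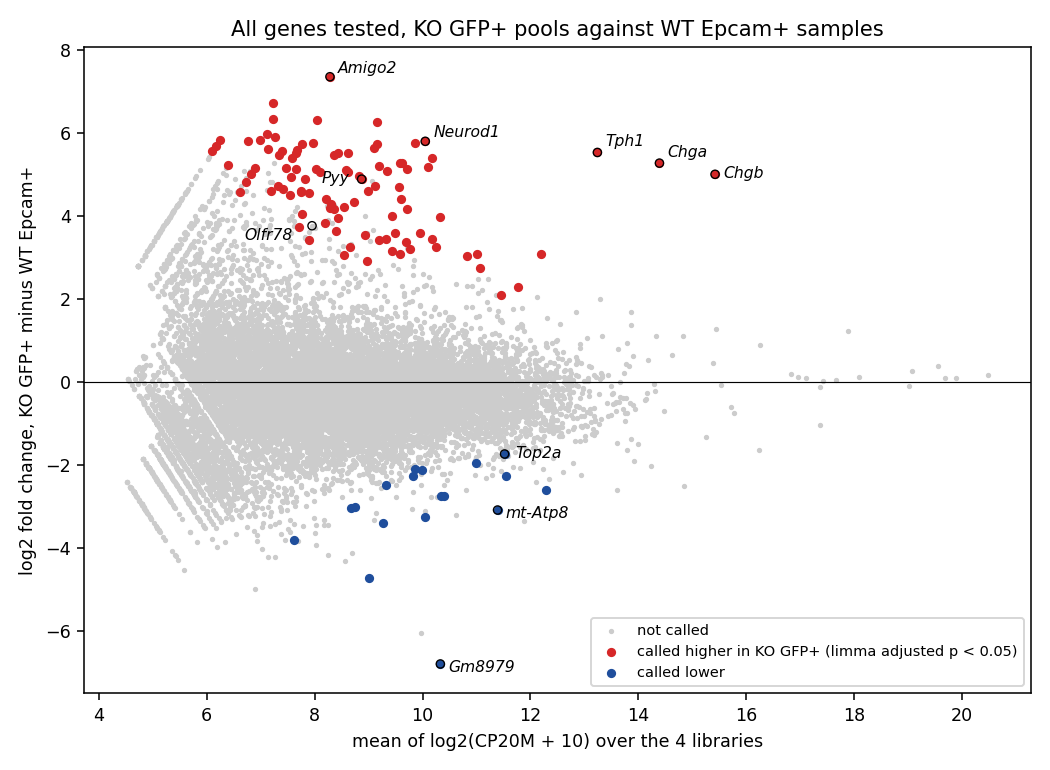
Each point is 1 of the 15779 genes tested, by the mean of log2(CP20M + 10) over the 4 libraries (x axis) and the log2 fold change of KO GFP+ pools against WT Epcam+ samples (y axis). The 98 genes called higher (red) reach 7.37, *Chgb*, *Chga* and *Tph1* stand at high expression among them, and *Gm8979* lies lowest of the 18 called lower (blue) at -6.80.

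Granins and the enzymes that process prohormones had the highest median change of the gene lists. Of 13 listed genes 11 were tested, all 11 had higher values in both KO pools than in both WT samples, and 8 passed the test as higher and 0 as lower. Over all genes tested, the groups failed to overlap in this direction for 19.4%, and limma called 0.621% higher. The median log2 fold change of the 11 was 4.91, against -0.26 over all genes. *Pcsk1n*, which encodes the granule protein proSAAS, had 72 and 42 CP20M in WT samples and 7059 and 3568 in KO pools, a log2 fold change of 6.27 (SE 0.46, limma adjusted p = 0.0173). *Cpe*, the carboxypeptidase that trims prohormones, went from 108 and 124 to 7434 and 3266 CP20M, with a log2 fold change of 5.29. *Ptprn*, a receptor-like protein of the granule membrane, went from 81 and 62 to 3342 and 1883 CP20M, and *Scg5*, the chaperone of prohormone convertase 2, from 36 and 42 to 1277 and 1023 CP20M. *Scg3* and *Pam*, the enzyme that amidates peptides such as PYY, also passed, with log2 fold changes of 4.23 and 2.30. The members that did not pass were *Vgf* (adjusted p = 0.0693), *Ptprn2* (0.0744) and *Pcsk1* (0.0833), each past 0.05 with edgeR. *Pcsk1*, the convertase of most gut hormones, was already at 653 and 607 CP20M in the general epithelium and at 2854 and 1767 in KO pools. *Scg2*, below the filter, had 0 and 326 CP20M in KO pools.

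In the serotonin list the genes that passed the test, *Tph1*, *Slc18a1* and *Ddc*, are those of synthesis and granule loading. *Tph1*, the rate-limiting enzyme of serotonin synthesis in the gut, had 1484 and 1346 CP20M in WT samples, 90407 and 48339 in KO pools and 120152 and 147883 in HE pools. Its log2 fold change of KO against WT was 5.54 (SE 0.37, limma adjusted p = 0.0173). *Slc18a1*, the vesicular monoamine transporter that loads serotonin into granules, went from 117 and 114 to 10400 and 4497 CP20M, with a log2 fold change of 5.77. *Ddc*, which makes serotonin from the product of *Tph1*, went from 733 and 915 to 7810 and 3951 CP20M, with a log2 fold change of 2.75. *Gch1*, the first enzyme of the cofactor that *Tph1* needs, had 90 and 144 CP20M in WT samples and 939 and 430 in KO pools but did not pass (adjusted p = 0.136, and 0.0310 with edgeR). These 3 calls were the only ones among 11 tested members, and 0 were called lower (0.621% higher and 0.114% lower over all genes). The median of the 11 was 0.24. The serotonin transporter *Slc6a4* had 224 and 134 CP20M in WT samples and 38 and 105 in KO pools, and *Maoa*, which degrades serotonin, 10190 and 10469 against 1502 and 5520, both without passing the test (adjusted p = 0.359 and 0.216). *Slc18a2*, the other vesicular transporter, had 179 and 124 against 338 and 140 CP20M, which overlapped.

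Peptide hormones differed by gene. Of 14 listed genes 9 were tested, and 3 passed as higher, *Sct*, *Pyy* and *Insl5*, and 0 as lower. Over all genes 0.621% passed as higher. *Sct*, encoding secretin, went from 278 and 350 CP20M in WT samples to 6270 and 4044 in KO pools, a log2 fold change of 3.97 (SE 0.33, limma adjusted p = 0.0175). *Insl5*, a hormone of colonic L cells, had 0 and 11 CP20M in WT samples, from 0 reads and 1 read, and 564 and 1139 in KO pools, from 15 and 98 reads. The ratio of its pooled reads was 210, with an exact 95% interval of 36.9 to 8358 for counting error. *Tac1*, the precursor of substance P and a gene of enterochromaffin cells, had 54 and 144 CP20M in WT samples and 6233 and 1302 in KO pools (adjusted p = 0.0648, and 0.00534 with edgeR). *Gcg*, the precursor of GLP-1, had 340 and 504 CP20M in WT samples and 639 and 1767 in KO pools, with a log2 fold change of 1.34 that did not pass (adjusted p = 0.262). Other hormones stood at the other end. *Nts*, encoding neurotensin, had 188 and 134 CP20M in WT samples and no read in the HE and KO pools, which puts it at least 6.11-fold lower in KO when 3 reads are set as the floor over both pools. *Sst*, the somatostatin of D cells, had 260 and 196 CP20M in WT samples and 113 and 0 in KO pools. Neither passed (adjusted p = 0.121 and 0.286), and *Gip* was listed at 0 in all 6 sorted libraries. The median log2 fold change of the 9 hormones was 3.20, or 2.31 with genes at 0 reads in a group set to their bound.

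Transcription factors of the enteroendocrine lineage were another group with many calls. Of 23 listed factors 19 were tested, 9 passed as higher and 0 as lower, and edgeR called 14 higher. Over all genes the shares called higher were 0.621% with limma and 2.74% with edgeR. Their median log2 fold change was 4.01. *Neurod1*, which acts after lineage choice, went from 152 and 114 CP20M in WT samples to 12615 and 4974 in KO pools, a log2 fold change of 5.81 (SE 0.48, limma adjusted p = 0.0175). *Runx1t1* went from 36 and 42 to 3567 and 1314, *Nkx2-2* from 18 and 21 to 2028 and 756, and *Insm1* from 54 and 31 to 5182 and 1058 CP20M. *Lmx1a* and *Fev*, both factors of the enterochromaffin lineage, went from 135 and 62 to 3755 and 1662 and from 9 and 11 to 1014 and 489 CP20M. *Myt1*, *Prox1* and *Rfx6* also passed, with log2 fold changes of 4.34, 3.83 and 4.42. *Pax4* had 9 and 72 CP20M in WT samples and 1765 and 430 in KO pools without passing (adjusted p = 0.118, and 0.0157 with edgeR), and *Pax6* 9 and 62 against 301 and 349 (adjusted p = 0.170). *Neurog3*, the transient factor of endocrine progenitors, had 0 and 12 CP20M in KO pools and was below the filter, as were *Isl1* and *Hhex*. *Atoh1*, the factor of all secretory lineages and of goblet cells, had 1064 and 1264 CP20M in WT samples but 38 and 1221 in KO pools, the widest split between the pools in this list.

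Genes of vesicle release and of excitability were also among those called. In the exocytosis list 25 of 30 genes were tested, 10 passed as higher and 0 as lower, edgeR called 19 higher, and the median log2 fold change was 3.65. Over all genes limma called 0.621% higher and edgeR 2.74%. *Snap25*, a core component of the fusion machinery, went from 161 and 185 CP20M in WT samples to 10851 and 4056 in KO pools, a log2 fold change of 5.19 (SE 0.48, limma adjusted p = 0.0218). *Rab3c*, a small GTPase of secretory vesicles, went from 152 and 83 to 6496 and 3556 CP20M. *Cadps*, which primes dense-core granules, *Rims2*, *Rimbp2* and *Unc13a*, all proteins of the release site, had log2 fold changes of 5.74, 5.13, 4.70 and 3.25. *Syp*, encoding synaptophysin, had 27 and 0 CP20M in WT samples and 864 and 477 in KO pools, and did not pass (adjusted p = 0.0648, and 0.00421 with edgeR). The list was not uniform, since *Rab3a*, *Cadps2* and *Unc13b* had fitted log2 fold changes of -0.65, -0.16 and 0.27 and did not pass.

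Among ion channels 12 of 18 genes were tested, 5 passed as higher and 0 as lower, with a median of 3.36. For this list and the next 2, the share of all genes that passed as higher was 0.621%. *Cacna1h*, a low-threshold calcium channel, went from 421 and 350 CP20M in WT samples to 4281 and 3254 in KO pools, a log2 fold change of 3.25 (SE 0.29, limma adjusted p = 0.0199). *Cacna1a* and *Cacna2d1*, subunits of calcium channels, *Kcnb2*, a potassium channel, and *Scn3a*, a sodium channel, had log2 fold changes of 3.46, 5.13, 5.07 and 4.18. In the list of the neuronal cytoskeleton 3 of 9 tested genes passed, *Map1b*, *Kif1a* and *Nefm*, and 0 as lower, with a median of 3.15 with limma and 5.06 with edgeR. *Map1b*, a microtubule-associated protein, went from 144 and 196 to 10400 and 5439 CP20M, with a log2 fold change of 5.40. Of 7 tested RNA-binding proteins of neurons *Celf3* alone passed, with 18 and 21 CP20M in WT samples and 4093 and 1348 in KO pools, a log2 fold change of 6.32. The median of these 7 was 2.43. *Elavl3* had 0 and 11 against 451 and 186 CP20M (adjusted p = 0.100), and *Srrm4*, a neural splicing factor, had no read in WT samples and 338 and 93 CP20M in KO pools, at least 10.5-fold higher with the floor of 3 reads over the group.

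Receptors that sense the gut contents did not pass the test. In the list of sensory receptors 7 of 12 were tested, 0 were called, and edgeR called *Olfr78* and *Piezo2* higher. *Olfr558*, which encodes a related receptor beside *Olfr78*, had 9 and 62 CP20M in WT samples, 413 and 128 in KO pools and 1588 and 2014 in HE pools. Its log2 fold change of KO against WT was 2.71 (SE 0.95, limma adjusted p = 0.235). *Ffar2*, another receptor for short-chain fatty acids, had 322 and 483 CP20M in WT samples and 1728 and 570 in KO pools (adjusted p = 0.280). *Piezo2*, a mechanically gated channel, was the receptor with the widest split of the KO pools, at 76 and 616 CP20M. *Adra2a* was lower in both KO pools, at 76 and 221 against 608 and 381 CP20M, without passing (adjusted p = 0.229). *Ffar3* had no read in KO pools and *Trpa1* was listed at 0 in all 6 libraries.

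**Figure D3:**
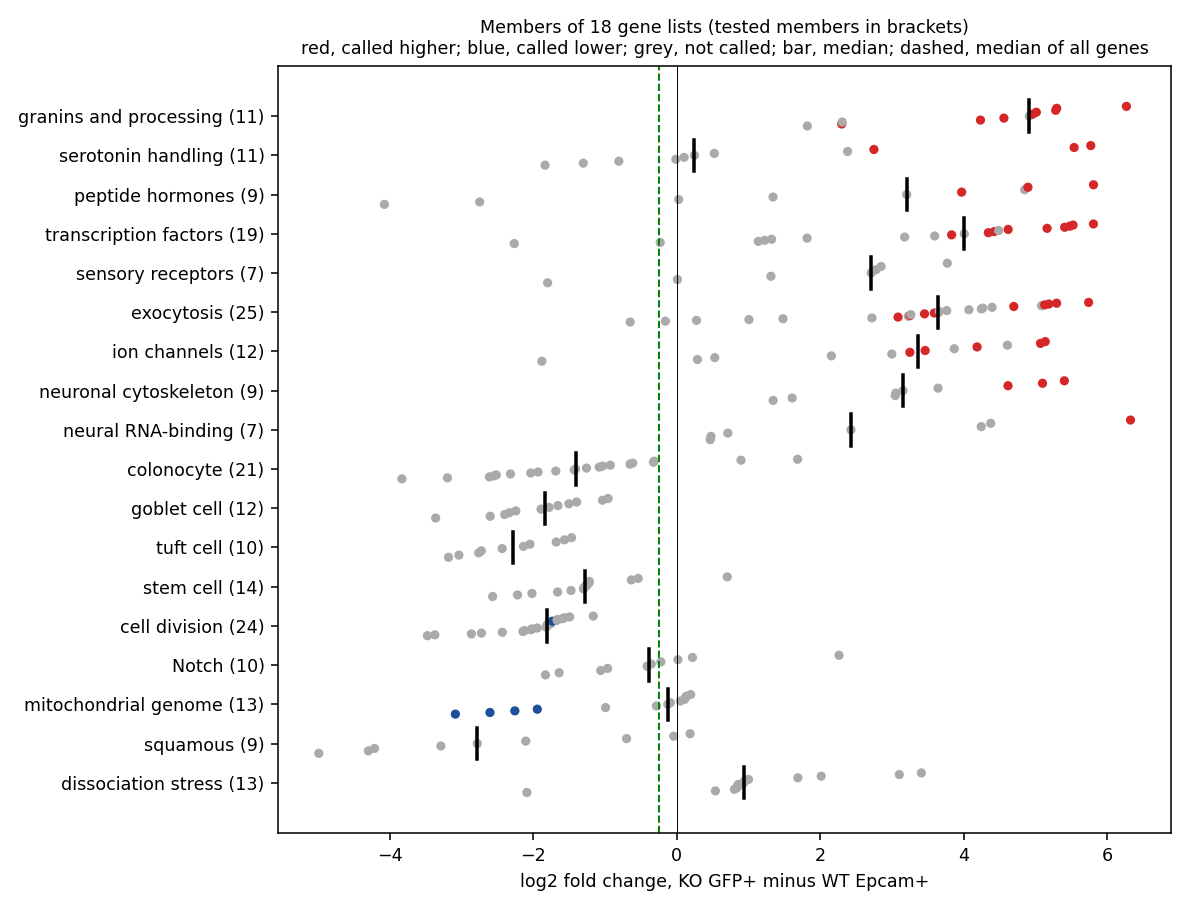
Log2 fold changes of KO GFP+ pools against WT Epcam+ samples for the tested members of 18 gene lists, 1 point per gene, with the median of each list (black bar), the median of all genes at -0.26 (dashed line) and calls in colour. The 9 lists of enteroendocrine and neuronal genes have medians between 0.24 and 4.91, the colonocyte, goblet cell, tuft cell, stem cell and cell division lists between -2.29 and -1.28, and the squamous list lies at -2.78.

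Some of the highest changes fell outside the lists, and the genes of this paragraph were chosen after their values were seen. *Amigo2*, which encodes a neuronal adhesion protein, had the largest log2 fold change, 7.37 (SE 0.54, limma adjusted p = 0.0173), with 9 and 21 CP20M in WT samples and 5857 and 2720 in KO pools. *Iapp*, the amylin precursor, had 0 and 11 against 2178 and 1070 CP20M, and *Resp18*, a protein of endocrine granules, 81 and 93 against 6458 and 1976. *Wif1*, a secreted inhibitor of Wnt signalling, went from 63 and 72 to 6308 and 2348 CP20M, and *Bmp2*, a ligand of the BMP pathway, from 144 and 185 to 4168 and 1825. *Pappa2*, a protease of IGF-binding proteins, and *Gnao1*, a G protein subunit of neurons, had log2 fold changes of 5.06 and 5.11. *Zbtb20*, a transcription factor of endocrine tissues, was the most abundant of these, going from 1663 and 1531 to 20725 and 8843 CP20M. *Tnr*, the extracellular matrix protein tenascin-R, had no read in WT samples and 751 and 419 CP20M in KO pools, at least 34.6-fold higher with the floor of 3 reads over the group. *Vim*, an intermediate filament gene that stromal cells also use, went from 242 and 206 to 3117 and 1360 CP20M.

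Genes of other epithelial cells were on the lower side, but few passed. Among 24 genes of cell division, all 24 had lower fitted values in KO pools and 23 did not overlap between the groups, a pattern that 35.5% of all genes showed in this direction. *Top2a*, a topoisomerase of dividing cells, alone passed, with 5373 and 5353 CP20M in WT samples and 1615 and 1592 in KO pools, a log2 fold change of -1.74 (SE 0.24, limma adjusted p = 0.0479). *Mki67* had 14526 and 13211 against 2891 and 4451 CP20M (adjusted p = 0.0608). edgeR called 12 of the 24 lower, against 0.691% of all genes, and the median was -1.81. *Uhrf1*, *Atad2* and *Ccna2*, genes of the cell cycle outside the list and chosen after their values were seen, were called lower at log2 fold changes of -3.04, -2.27 and -2.11.

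Stem cell, tuft cell, goblet cell and colonocyte genes gave 0 calls with limma. Of 14 tested stem cell genes 13 had lower values in both KO pools, against 35.5% of all genes. Their median was -1.28, and edgeR called *Cdca7* (957 and 1151 against 226 and 279 CP20M). The stem cell receptor gene *Lgr5* had 590 and 874 against 338 and 256 CP20M (adjusted p = 0.208). All 10 tested tuft cell genes had negative log2 fold changes, with a median of -2.29, or -1.87 with genes at 0 reads set to their bound, and edgeR called *Dclk1* (698 and 771 against 226 and 70 CP20M). The 12 goblet cell genes had a median of -1.84 with limma and -0.80 with edgeR, and edgeR called *Retnlb* lower. Of the 12, 6 had lower values in both KO pools, against 35.5% of all genes. Summed over the list, KO pool 1 had 72429 CP20M and KO pool 2 had 350008, against 341458 to 383963 in WT samples. The 21 colonocyte genes had a median of -1.41 with limma and -0.87 with edgeR. *Krt20*, a keratin of mature surface cells, ran against this list, at 4434 and 3822 CP20M in WT samples and 14755 and 11876 in KO pools (log2 fold change 1.68, adjusted p = 0.0648, and 0.0157 with edgeR). *Ceacam20* was the other of 2 members with higher fitted values, at 859 and 668 against 2028 and 988 CP20M (limma adjusted p = 0.298). *Clca4a*, an epithelial gene outside the lists and named after its values were seen, was called lower, from 3120 and 3411 to 301 and 361 CP20M (log2 fold change -3.27, adjusted p = 0.0175 from limma). The 10 tested genes of the Notch pathway gave 0 calls and a median of -0.39 with limma and -0.25 with edgeR.

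The general epithelium also carried squamous keratins. *Krt5* had 760 and 463 CP20M in WT samples and 38 and 12 in KO pools, and *Krt14* 662 and 668 against 0 and 35. Of 9 tested squamous genes limma called 0 (adjusted p = 0.0583 and 0.0693 for these 2) and edgeR 3 lower (0.691% of all genes). The summed level of all 14 listed squamous genes was 2010 to 2929 CP20M in WT samples and 341 to 387 in KO pools. The part of these cells in the other differences was not tested.

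Of the 13 protein-coding genes of mitochondrial DNA, 4 were called lower, *mt-Atp8*, *mt-Atp6*, *mt-Co2* and *mt-Co3*, with log2 fold changes of -3.09, -2.61, -2.26 and -1.95. Over all genes limma called 0.114% lower. *mt-Atp8* had 7241 and 8435 CP20M in WT samples, 902 and 918 in KO pools and 449 and 521 in HE pools, but 150 and 129 in whole crypts of 2 WT mice. *mt-Atp6*, *mt-Co2* and *mt-Co3* likewise had lower values in both WT crypts (283 to 408, 252 to 347 and 440 to 536 CP20M) than in the KO pools, so that for these 4 genes the WT sorted samples had the highest values of all groups shown here. The other 9 did not pass, and the median of the 13 was -0.13, or 0.02 after median-of-ratios rescaling and 0.18 with edgeR. Reads of these 4 genes can be shared with nuclear copies, and their values are uncertain.

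Cells of other tissues were checked by their markers. Of 14 leukocyte genes 0 reached the filter, with a summed level of 76 to 107 CP20M in KO pools and 147 to 225 in WT samples, and *Ptprc* had 0 and 35 CP20M in KO pools. Of 11 stromal genes 4 were tested and 0 called. Of these, the endothelial *Pecam1* was higher in KO pools, at 1803 and 826 against 126 and 340 CP20M (adjusted p = 0.152, and 0.0317 with edgeR), while *Col1a1* had 0 and 12 CP20M there. Among 12 genes of enteric neurons and glia 3 were tested and 0 called, and *Ret*, a receptor also used by endocrine cells, had 864 and 581 against 99 and 52 CP20M (adjusted p = 0.0648, and 0.00570 with edgeR). Immediate early and heat shock genes, which rise when tissue is dissociated, had higher values in both KO pools for 12 of 13 genes, against 19.4% of all genes, with a median of 0.93, 0 calls with limma and 4 with edgeR. Over all genes edgeR called 2.74% higher. *Hspa1b* had 242 and 247 CP20M in WT samples and 4769 and 988 in KO pools, and the list summed to 169595 and 80056 CP20M in KO pools against 52738 and 47539. The part of dissociation in the other differences was not tested. The 5 sex-linked genes gave 0 calls.

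The 2 KO pools differed from each other. KO pool 1 had the higher value for 94 of the 98 genes called higher, and the median ratio of pool 2 to pool 1 was 0.483 over these genes, against 0.978 over all genes with more than 3 reads in pool 1. The exceptions were *Pyy*, *Insl5*, *Robo1* and the small nuclear RNA *Gm25939*, the latter 2 named after their values were seen. The goblet cell list went the other way, with a median ratio of 4.94. *Muc2*, the main gut mucin, had 54740 CP20M in pool 1 and 252362 in pool 2, and *Clca1* 76 and 16152. For the colonocyte list the median ratio was 3.37, and *Car1* had 4318 and 35383 CP20M. *Lpo*, chosen after its values were seen, had 0 CP20M in pool 1, 1511 in pool 2 and 8349 and 7962 in WT samples. The enterochromaffin genes *Tph1*, *Tac1* and *Fev* were lower in pool 2, while the L cell genes *Pyy*, *Insl5* and *Gcg* were at 2568, 1139 and 1767 CP20M there, against 2516, 564 and 639 in pool 1. The part of other epithelial RNA in the levels of pool 2 was not tested.

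**Figure D4:**
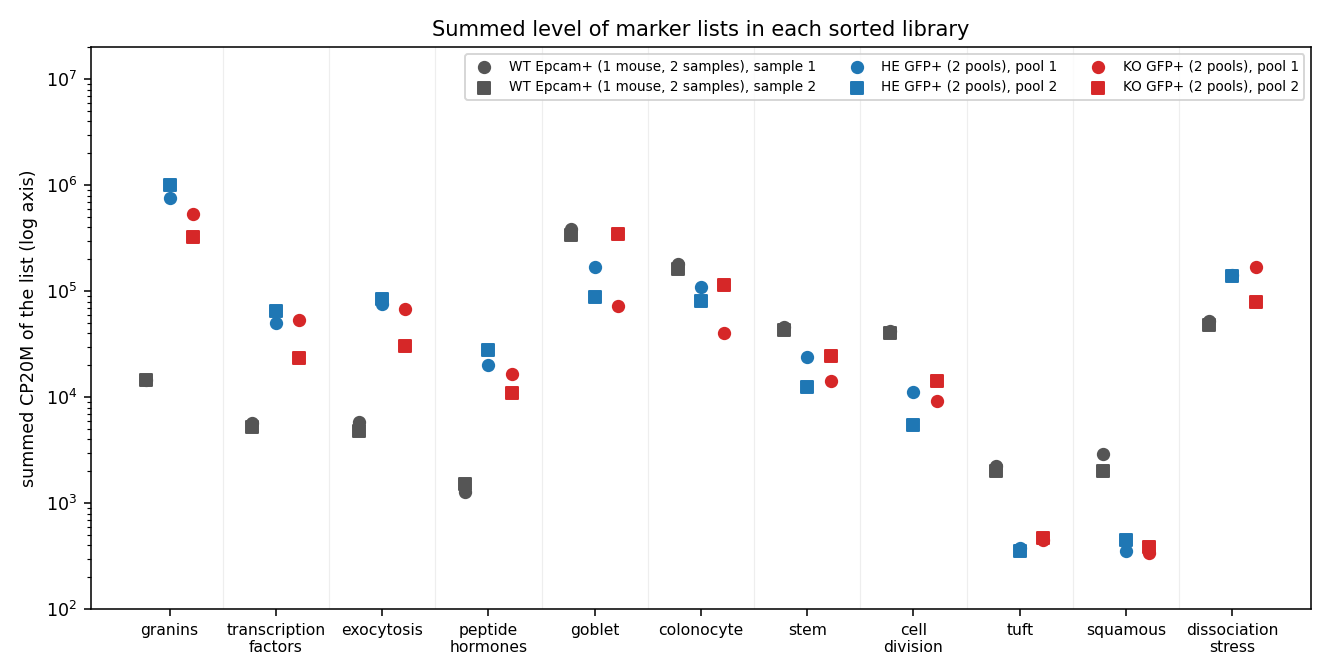
Summed CP20M (log axis) of 11 gene lists in each sorted library, with 1 point per library (grey, WT Epcam+ samples; blue, HE GFP+ pools; red, KO GFP+ pools; circles, number 1; squares, number 2). KO pool 2 has 350008 CP20M of goblet cell genes, between the WT samples, while KO pool 1 has 72429, and both KO pools have 321740 CP20M or more of granin genes against 14645 or less in WT samples.

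Beside the HE pools, the KO pools held less RNA of most of these genes, but no single gene passed the test. The contrasts of KO and HE pools with the WT samples share those samples, so their values are set side by side. For the 98 genes the median log2 fold change was 4.89 in KO and 5.54 in HE against WT. The KO mean was below the HE mean for 96 of the 98, against 60% of all genes tested, and both KO pools were below both HE pools for 56, against 23.5%. The median share of the HE mean was 60% for the KO mean, 80.6% for KO pool 1 and 36.7% for KO pool 2. In the direct contrast of KO with HE, limma called 0 of 15779 genes (0%), edgeR 0 and DESeq2 10 higher and 3 lower, and 997 genes had an unadjusted p under 0.05, 699 lower in KO (4.43%) and 298 higher (1.89%). *Chga*, *Chgb* and *Tph1* had KO against HE log2 fold changes of -1.02, -1.13 and -1.01 (SEs 0.34, 0.41 and 0.34, adjusted p = 0.746 each from limma). *Olfr78* and *Olfr558* had -2.34 and -2.90 (SEs 0.62 and 0.75, the same adjusted p). *Pyy* and *Insl5* had 0.45 and -0.19 (adjusted p = 0.895 and 0.958).

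The genes with the smallest p-values of KO against HE were mostly not enteroendocrine markers. On the lower side, *Prlr*, the prolactin receptor, had 3763 and 3694 CP20M in HE pools and 1352 and 1383 in KO pools, near the 1618 and 1264 of the WT samples. *Ckb*, a creatine kinase, had 2486 and 2507 in HE pools, 789 and 826 in KO pools and 340 and 278 in WT samples. *Slco2a1*, a prostaglandin transporter, and *Hopx* had KO against HE log2 fold changes of -1.56 and -1.53. In each of these 4 genes the KO pools lay close together and did not overlap with the HE pools. This follows in part from naming the genes by their small p. Both KO pools were below both HE pools for 23.5% of all genes tested. On the higher side were *Gk*, *Sycn*, *Acpp*, *Lgals12* and *B3gnt7*. *Acpp* had 12 and 14 CP20M in HE pools, 226 and 640 in KO pools and 573 and 617 in WT samples, and *Lgals12* 116 and 81, 451 and 593, and 635 and 668. None passed (adjusted p = 0.746 from limma for each).

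*Gm8979* had the largest decrease of all genes called lower, and its values followed the genotype in a further tissue sample. It is annotated as an unprocessed pseudogene on chromosome 7 (ENSMUSG00000095649, 106076751 to 106084046, minus strand), 3317280 bases from the end of *Olfr78*. It had 15026 and 12287 CP20M in WT samples, 2992 and 601 in HE pools and 76 and 163 in KO pools, a log2 fold change of -6.80 for KO against WT (SE 0.39, limma adjusted p = 0.0173). In whole colon crypts, which hold all epithelial cells and were not used in this comparison, *Gm8979* had 9603 and 9412 CP20M in 2 WT mice and 62 to 173, with a median of 84, in 5 KO mice. An exact two-sided permutation test of 2 against 5 mice cannot go below p = 0.0952. *Gm8979* and *Cps1* were among the 18 genes called lower that also had lower values in all 5 KO crypts than in both WT crypts, which 13.2% of all genes tested had. *Cps1*, the first enzyme of the urea cycle, had 2012 and 1973 CP20M in WT samples, 226 and 140 in KO pools and 93 and 0 in HE pools. Of the 98 genes called higher, 6 were higher (background 16.6%) and 2 lower in all KO crypts, the 2 being *Insl5* and *1810006J02Rik*.

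Genes near *Olfr78* on chromosome 7 gave 0 calls among the 14 tested, with a median of -0.15 with limma and -0.01 with edgeR. *Trim12a* (104299894 to 104315466) had 135 and 216 CP20M in WT samples and 0 and 12 in KO pools (adjusted p = 0.158), and in crypts 269 and 360 in WT and 3 to 13 in KO mice. *Trim30d* (104470014 to 104507849) had 179 and 175 against 0 and 24 CP20M (adjusted p = 0.183), and in crypts 392 and 292 against 12 to 34. *Trim34b* (104329471 to 104336909), chosen after its values were seen, was the reverse, at 0 and 21 against 113 and 70 CP20M (adjusted p = 0.262), and in crypts 8 and 16 against 108 to 148. For these 3 genes and *Gm8979* the WT and KO values did not overlap in the sorted cells or in the crypts. Over all genes tested, 35.5% were lower and 19.4% higher in KO without overlap in the sorted cells. In the crypts the shares were 13.2% and 16.6%. Of the 14 tested neighbours, 5 were lower and 5 higher without overlap in the sorted cells. The *Trim* genes of this region are near copies of each other, and reads can be shared between them. The *Olfr78* allele and the chromosome 7 sequence inherited with it cannot be told apart in these libraries.

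**Figure D5:**
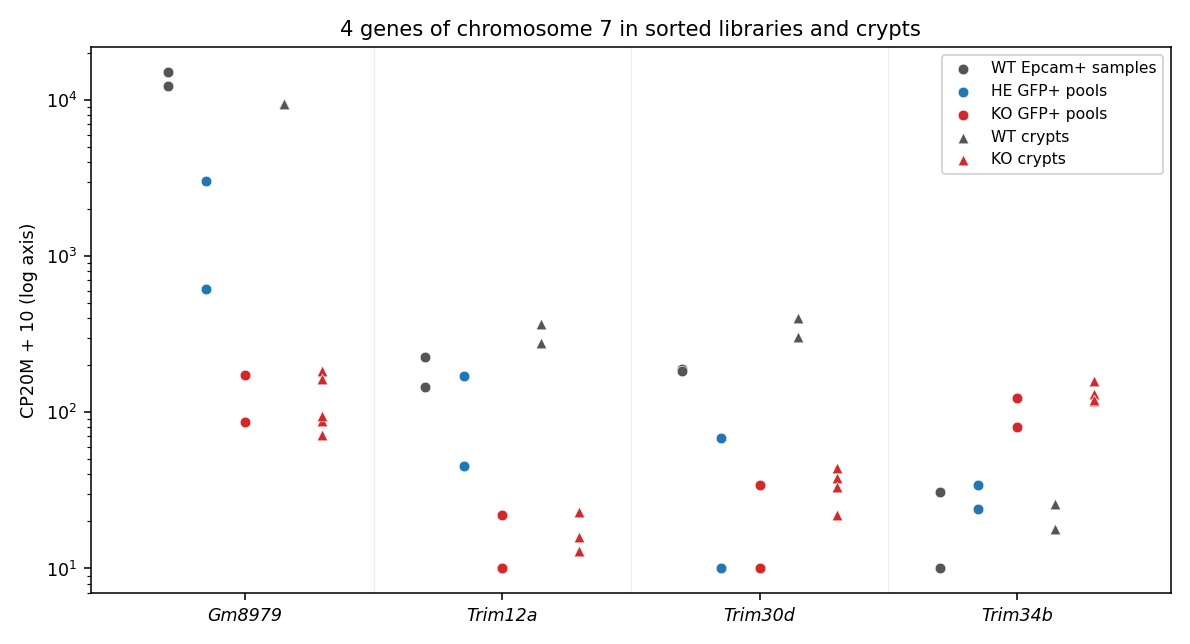
CP20M + 10 on a log axis for 4 genes of chromosome 7 in WT Epcam+ samples, HE GFP+ pools and KO GFP+ pools (circles) and in colon crypts of 2 WT and 5 KO mice (triangles), 1 point per library. *Gm8979*, *Trim12a* and *Trim30d* lie lower and *Trim34b* higher in the KO libraries of both kinds, with *Gm8979* at 62 to 173 CP20M in KO crypts against 9412 and 9603 in WT crypts.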

How the data were processed

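Total RNA of sorted cells was made into libraries with the Ovation Solo kit. The authors mapped reads to GRCm38 with STAR, counted them per gene with HTSeq on Ensembl release 90, and deposited for the sorted cells a signal per gene (CP20M), its reads as a share of the library times 20000000, rounded up, and for the crypts a score of the same kind. Whole reads were recovered from these values for 99.87% to 99.98% of them. The 2 libraries of each group differed beyond sampling noise. Groups came from the sample labels. Per the labels, crypts came from numbered mice, both WT sorted samples from 1 mouse and the GFP+ cells from pools of mice, and p-values measure the spread between the libraries. 15 gene symbols changed by a spreadsheet were repaired.

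Genes with at least 40 CP20M (2 CPM) in at least 2 of the 4 KO and WT libraries were tested with limma 3.58.1 (R 4.3.3), with a trend of the spread, on log2(CP20M + 10). P-values were adjusted by Benjamini-Hochberg. The KO and HE pools were compared in 1 fit of the 6 sorted libraries over the same genes. edgeR 4.0.16 (quasi-likelihood, TMM) and DESeq2 1.42.0 were run on the recovered reads as alternatives, and the fits were tested on simulated data. Intervals and floors (3 reads) cover counting error only. The library numbers are the same in both groups and name different animals. The correlation of same-numbered deviations was 0.02 for KO and WT and -0.15 for KO and HE. The members and gene lists were chosen with earlier results of these data known. Named genes were *Olfr78*, the markers, the 5 of smallest p in each list and those with the 5 highest KO means, and the 5 of smallest p per direction of KO against HE, with later choices marked where they stand. Other tested members of the lists are given where a count needed them. Gene positions are from GENCODE M21. Some genes of the lists and calls are not reported here by name. The authors' second table, of crypts of another mouse line, was not used here.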

Additional observations from a re-analysis of the deposited data

Results flagged for a closer look

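*Gk*, which encodes glycerol kinase, lay on opposite sides of the general epithelium in the 2 kinds of GFP+ pools. It had 367 and 340 CP20M in WT samples, 104 and 41 in HE pools and 864 and 884 in KO pools, a KO against HE log2 difference of 3.54 (SE 0.49, limma adjusted p = 0.746). *Sycn*, encoding syncollin of secretory granules, showed the same order, with 1440 and 1110 CP20M in WT samples, 323 and 54 in HE pools and 1615 and 3684 in KO pools, a difference of 4.07 (SE 0.71, limma adjusted p = 0.746). Every HE pool was below and every KO pool above both WT samples, and the test of the difference itself did not pass for either gene. Both genes were flagged for their difference between KO and HE in these same values, so their order is no separate result. Both KO pools lay above both WT samples for 19.4% of all genes tested. In whole crypts *Gk* had 600 and 772 CP20M in WT and 545 to 890 in KO mice, and *Sycn* 2831 and 4241 against 2195 to 3531, so that the crypt groups overlapped for both.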

How the results depend on the processing

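The counts of calls depended on the settings. At an adjusted p under 0.05, limma called 98 genes higher and 18 lower in KO than in WT. A pseudocount of 1 gave 0 and 0 (2448 genes at an unadjusted p under 0.05), no trend of the spread 0 and 0 (2350 genes), a pseudocount of 40 161 and 41, no filter 221 and 67, and a filter of 40 CP20M in every library 34 lower. edgeR gave 433 and 109 with TMM and 376 and 156 with library totals, and DESeq2 523 and 79. The fit on all 6 libraries gave 412 and 80. With the library number as a replicate block, 485 and 516 genes were called, although the numbers pair no animals. Library totals without mitochondrial genes, chosen after seeing the data, gave 55 and 6. With each library left out the counts ran from 0 to 1247 higher and from 0 to 3705 lower, where the lone sample was assumed to vary like the other group. At the stricter threshold, with 0 and 0, edgeR gave 30 and 1 with TMM and 47 and 4 with library totals, DESeq2 225 and 13, no filter 14 and 1, the replicate block 164 and 30, and the 6-library fit 32 and 1. The causes were not tested.

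For KO against HE, with 0 and 0, DESeq2 gave 10 higher and 3 lower, and leaving out a library 0 to 44 higher and 0 to 761 lower, the most without KO pool 2. Without KO pool 1 the counts were 5 and 3. The replicate block gave 0. A crossed block, chosen after seeing the data because same-numbered pools deviated apart, gave 9 and 9.

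Values of 134 genes were followed under each setting whose filter kept them. Of these, 65 were called in KO against WT, and none of the 65 reversed where it had a value. With a library left out none of them could reverse, because the groups did not overlap for any called gene. *Prlr* had log2 fold changes of KO against WT of 0.078 with median-of-ratios rescaling, 0.0832 with edgeR and 0.107 with DESeq2, and -0.241 to 0.113 with a library left out. With a library left out, the ranges were -2.14 to 0.0657 for *Muc2*, -7.14 to 0.414 for *Clca1*, -4.01 to 0.219 for *Fcgbp*, -4.61 to 0.0737 for *Atoh1*, -1.36 to 0.104 for *Acpp* and -0.0202 to 1.67 for *B3gnt7*, the ends given by the 2 KO pools. For KO against HE, *Pyy* had -0.0619 and -0.169 with the edgeR fits and -0.978 to 1.88 with a library left out. One read in KO pool 1 was worth 37.5 CP20M, which limits values under about 100 CP20M there.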
